A study of Homo sapiens with 4 samples.

Results

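The 38 genes described here encode the transcription factor NRF2 (gene NFE2L2), its inhibitor KEAP1, and enzymes and proteins of glutathione, thioredoxin, NADPH supply, xenobiotic detoxification, iron storage and metal binding. They were taken by gene symbol from a list of 38 names, which matched 39 of the 58735 genes of the deposited table, because the table holds 2 genes with the symbol SOD2. Total RNA was sequenced from the human lung cancer line H1299 (non-small cell), in 4 libraries: 2 of cells in which TTC28 had been knocked out with CRISPR/Cas9 (TTC28-KO) and 2 of wild-type cells (WT). Both groups were labelled untreated and were grown in the same serum-containing medium, and the labels do not say whether the knockout cells are a clone or a pool, nor whether replicates came from separate cultures, so p-values measure only the spread between these libraries.

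NRF2 is held low in unstressed cells by KEAP1, which presents it to a CUL3 ubiquitin ligase. When oxidants or electrophiles modify KEAP1, NRF2 accumulates, pairs with a small MAF protein (MAFF, MAFG or MAFK) and binds antioxidant response elements in the promoters of its target genes. Many non-small cell lung cancers run this pathway at a high level through mutations of KEAP1 or NFE2L2.

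Library totals were 28885443 and 25120500 counts in TTC28-KO replicates 1 and 2, against 25808423 and 27043491 in WT replicates 1 and 2. Mitochondrially encoded genes took 8.61% and 10.2% of the counts in TTC28-KO libraries, against 6.07% and 5.87% in WT libraries, and their part in the results below was not tested. TTC28 was at 2.96 and 2.99 FPKM (counts scaled by gene length and library size) in TTC28-KO libraries, against 4.88 and 5.44 FPKM in WT libraries, so its transcript was lower but still present (log2 fold change -0.79, SE 0.0764, edgeR adjusted p = 2.78e-06, the quasi-likelihood p adjusted by Benjamini-Hochberg). The epithelial and mesenchymal genes KRT8, KRT18, VIM and CDH2 were all expressed, while 0 of 5 lung lineage markers and 0 of 10 markers of blood, endothelial and fibroblast cells reached 1 FPKM in any library. The summed level of those 10 markers ran from 0.753 to 0.863 FPKM in TTC28-KO libraries and from 0.471 to 0.683 FPKM in WT libraries, with CD3E and HBB at 0 throughout. The epithelial genes KRT19, EPCAM and CDH1 stayed under 0.22 FPKM. In RNA from whole cultures, fewer cells that express a gene and less RNA per cell cannot be told apart.

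The comparison asked which of these transcripts differed between TTC28-KO and WT cells. They did not move together. Of the 31 members tested, 6 rose (PRDX1, EPHX1, FTL, ABCC1, PRDX3 and TKT), 9 fell (GCLM, OSGIN1, SLC7A11, MT1X, TXNRD1, CBR1, TXN, MT2A and HMOX1) and 16 did not pass. Testing required 1 FPKM or more in at least 2 of the 4 libraries, and a gene was called where edgeR's quasi-likelihood test gave a Benjamini-Hochberg adjusted p under 0.05 over all 13079 tested genes. The same rule called 50.3% of all tested genes, 25.1% higher and 25.2% lower in TTC28-KO, so that the 48.4% called among the tested members lies near the background. The role groups and lists below are small, and their shares called were not tested against that background. The median log2 fold change of the tested members was -0.02, against 0.00 over all tested genes, and single members ran from -0.81 to 0.64. With a log2 fold change of 0.5 or more in size also required, 6 of the 31 members passed, against 21.7% of all tested genes. Without WT replicate 1 the members called lower numbered 5. With limma on log2(TPM + 1), which changes both the test and the scale, 2 members were called higher (EPHX1 and PRDX1) and 13 lower, with ABCC1 at 0.18, FTL at 0.22, PRDX3 at 0.079 and TKT at -0.00082 not passing and NQO1, GSTP1, TALDO1 and SOD2 added among the lower. With limma on log2(FPKM + 1) the members called numbered 5 higher and 8 lower, and with edgeR on total counts as the scale 5 higher and 12 lower.

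**Figure D1:**
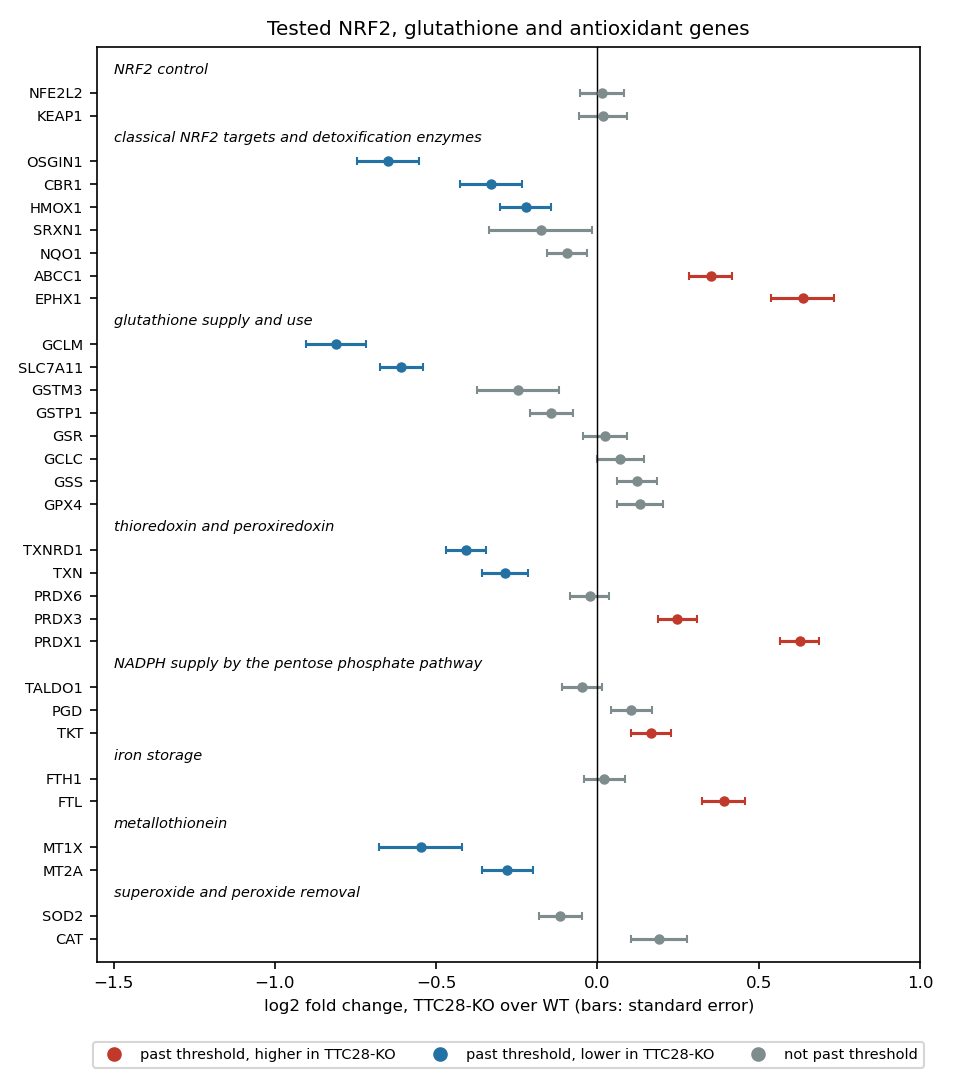
Log2 fold change, TTC28-KO over WT, of the 31 tested members with its standard error, grouped by role, with genes past the threshold in red (higher) or blue (lower) and the others in grey. NFE2L2 and KEAP1 sit at 0.01 and 0.02, GCLM lies lowest at -0.81 and EPHX1 highest at 0.64, and most role groups hold genes on both sides of 0.

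Neither regulator passed the test. NFE2L2 (hg38 chromosome 2, 177227595 to 177392697, minus strand) was at 16.4 and 18.1 FPKM in TTC28-KO libraries, against 17.4 and 16.8 FPKM in WT libraries. KEAP1 (chromosome 19, 10486120 to 10503741, minus strand) was at 32.9 and 27.7 FPKM in TTC28-KO libraries, against 30.01 and 30.02 FPKM in WT libraries. The groups overlapped for both genes, and their log2 fold changes had 95% intervals of -0.13 to 0.16 for NFE2L2 and -0.15 to 0.18 for KEAP1 (edgeR adjusted p = 0.889 and 0.865). The 25 tested genes on each side had a median of 0.32 around NFE2L2 and 0.15 around KEAP1, and with it removed NFE2L2 came to -0.31 and KEAP1 to -0.13, turned in direction and with no test. Both intervals span 0 and hold only for the scaling of the edgeR fit. With limma on log2(TPM + 1) the values were -0.152 for NFE2L2 and -0.154 for KEAP1, outside these intervals, and neither passed. The value of -0.31 for NFE2L2 lies outside its interval, which was computed without removing the neighbours. NRF2 is controlled mainly through the stability of its protein, which RNA counts do not measure. NFE2L2 shares 17.6% of its exonic bases with AC019080.1 on the same strand, which had 144 and 135 counts in TTC28-KO libraries, against 132 and 157 in WT libraries.

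Genes that act beside NRF2 and KEAP1 were described from a list of 12 partners and regulators. Of these, 2 rose, 6 fell and 4 did not pass (66.7% called, against 50.3% of all tested genes). MAFK, a small MAF protein, was at 9.74 and 8.69 FPKM in TTC28-KO libraries, against 15.9 and 15.1 FPKM in WT libraries (log2 fold change -0.75, SE 0.0765, edgeR adjusted p = 4.65e-06). MAFF, another small MAF, was at 3.62 and 3.78 FPKM in TTC28-KO libraries, against 5.54 and 5.72 FPKM in WT libraries (-0.60, SE 0.0841). MAFG, named after its values were seen, was at 15.8 and 14.6 FPKM in TTC28-KO libraries, against 18.7 and 20.6 FPKM in WT libraries (-0.37, SE 0.0689). All 3 small MAF genes were thus called lower, as were 25.2% of all tested genes, while the transcript of their partner NRF2 did not pass. The 3 genes were not tested as a set. SQSTM1, whose protein is an autophagy receptor that binds KEAP1, was at 114 and 105 FPKM in TTC28-KO libraries, against 145 and 153 FPKM in WT libraries (-0.44, SE 0.0705). PGAM5, a mitochondrial phosphatase that also binds KEAP1, was at 21.3 and 17.1 FPKM in TTC28-KO libraries, against 27.2 and 28.4 FPKM in WT libraries (-0.53, SE 0.0850).

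**Figure D2:**
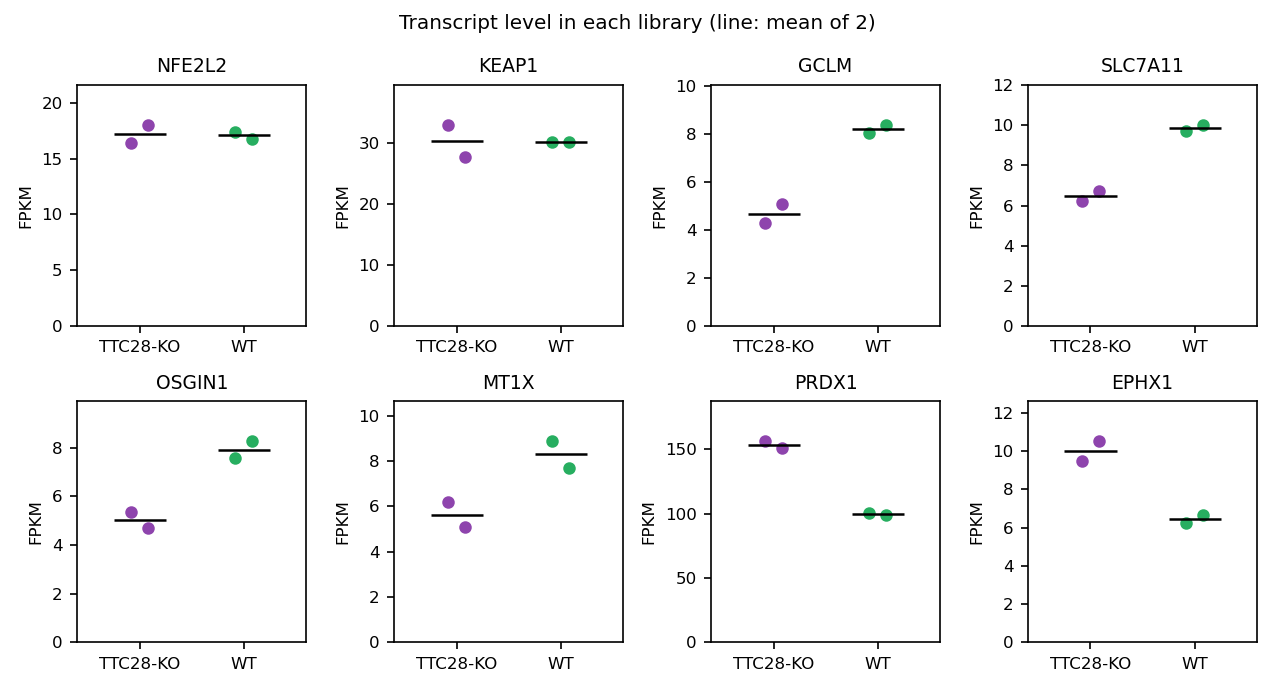
FPKM in each library, TTC28-KO left and WT right, for NFE2L2, KEAP1 and the 6 called members whose log2 fold change was 0.5 or more either way; the line is the mean of 2 libraries and each axis starts at 0. NFE2L2 and KEAP1 overlap between the groups, GCLM, SLC7A11, OSGIN1 and MT1X lie lower in both TTC28-KO libraries, and PRDX1 and EPHX1 lie higher in both.

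Among genes of glutathione supply and use, 8 of 9 were tested, of which 0 rose, 2 fell and 6 did not pass. The share called was 25%, against 50.3% of all tested genes, of which 25.2% were lower. The 2 that fell act at the entry to glutathione synthesis. GCLM (chromosome 1, 93885205 to 93909456, minus strand), the modifier subunit of glutamate-cysteine ligase, was at 4.29 and 5.08 FPKM in TTC28-KO libraries, against 8.05 and 8.39 FPKM in WT libraries. It was 1.75-fold lower (log2 fold change -0.81, SE 0.0934, edgeR adjusted p = 1.26e-05), and the groups did not overlap. SLC7A11 (chromosome 4, 138164097 to 138242349, minus strand), the cystine importer subunit of system xc-, was at 6.22 and 6.72 FPKM in TTC28-KO libraries, against 9.74 and 10.0 FPKM in WT libraries, 1.52-fold lower (-0.61, SE 0.0668, edgeR adjusted p = 8.46e-06). SLC7A11 is induced by ATF4 as well as by NRF2. It shares 8.97% of its exonic bases with SLC7A11-AS1 on the opposite strand, which had 7 and 1 counts in TTC28-KO libraries, against 19 and 16 in WT libraries. Whether counting used strand was not given in the sources used here.

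The catalytic subunit of the same ligase did not pass. GCLC was at 5.46 and 5.48 FPKM in TTC28-KO libraries, against 5.30 and 5.14 FPKM in WT libraries (log2 fold change 0.07, 95% interval -0.09 to 0.23, edgeR adjusted p = 0.440), and with the median of its neighbours (0.21) removed it came to -0.14. The ratio of GCLM to GCLC per length was therefore 0.785 and 0.927 in TTC28-KO libraries, against 1.52 and 1.63 in WT libraries. As a ratio within a library it does not depend on how libraries are scaled, and it was lower in both TTC28-KO libraries. Its place over or under 1 depends on the gene lengths used and says nothing of an excess of either subunit. In WT replicate 1 the counts were 1143 for GCLM and 1200 for GCLC. The ratio carries no test. Later steps did not pass either. GSS, glutathione synthetase, had a log2 fold change of 0.12 (95% interval -0.01 to 0.25). GSR, which reduces oxidized glutathione with NADPH, was at 0.02 (-0.12 to 0.17).

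Glutathione users among the members did not pass. GPX4, the selenoenzyme that reduces lipid hydroperoxides in membranes and restrains ferroptosis, was at 198 and 172 FPKM in TTC28-KO libraries, against 171 and 168 FPKM in WT libraries (log2 fold change 0.13, edgeR adjusted p = 0.141). GPX4 passed without TTC28-KO replicate 2, at 0.22 (edgeR adjusted p = 0.0112). GSTP1, a glutathione transferase, was at 81.2 and 72.6 FPKM in TTC28-KO libraries, against 85.0 and 85.2 FPKM in WT libraries (-0.14, edgeR adjusted p = 0.0868). GSTM3, a transferase of the mu class, was at 2.24 and 1.83 FPKM in TTC28-KO libraries, against 2.44 and 2.40 FPKM in WT libraries (-0.25), beside neighbours at a median of -0.25. Both transferases lay lower in each TTC28-KO library, and without TTC28-KO replicate 1 GSTP1 passed at -0.22 (edgeR adjusted p = 0.0119) and GSTM3 at -0.40 (edgeR adjusted p = 0.0288).

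GPX1, the cytosolic glutathione peroxidase, was almost unread in the table. It had 9 and 13 counts in TTC28-KO libraries, against 1 and 3 in WT libraries, and was not tested. The 2 processed copies listed under its name had 60 and 56 counts in TTC28-KO libraries, against 48 and 30 in WT libraries, more than the gene itself in every library. The table classes GPX1 as a polymorphic pseudogene, and the treatment of reads that match the gene and a copy was not given in the sources used here.

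The antioxidant response element was searched by its core letters TGACNNNGC on both strands in the 250 bases before the RefSeq transcript starts (GRCh38.p14). Of 40 such windows of 29 members in the RefSeq table, 10 windows of 9 genes held a match, 25%, against 10.9% of 35116 windows of all genes. The 9 genes went different ways: GCLM, TXNRD1, CBR1, MT1X and MT2A fell, EPHX1 rose, and KEAP1, GSTP1 and PGD did not pass. The windows of GCLM, EPHX1 and GSTP1 are shown because a match stands near the start of a gene that fell, of a gene that rose and of a gene that did not pass; capitals mark the match, which in GCLM reads on the reverse strand. They lie at chr1:93909431-93909680 (minus strand), chr1:225825104-225825353 (plus strand, the window of the 3 EPHX1 windows that holds a match) and chr11:67583562-67583811 (plus strand). A match is a description of the letters and not a measured binding site.
GCLM: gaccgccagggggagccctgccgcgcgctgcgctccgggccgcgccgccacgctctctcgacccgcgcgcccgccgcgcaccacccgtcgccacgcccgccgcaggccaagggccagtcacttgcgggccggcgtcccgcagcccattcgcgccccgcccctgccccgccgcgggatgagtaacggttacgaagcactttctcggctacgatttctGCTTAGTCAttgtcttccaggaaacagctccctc
EPHX1: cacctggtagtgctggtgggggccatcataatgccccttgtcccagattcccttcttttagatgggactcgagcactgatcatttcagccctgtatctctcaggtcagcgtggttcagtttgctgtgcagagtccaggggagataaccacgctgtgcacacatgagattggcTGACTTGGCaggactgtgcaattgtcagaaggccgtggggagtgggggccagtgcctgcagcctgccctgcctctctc
GSTP1: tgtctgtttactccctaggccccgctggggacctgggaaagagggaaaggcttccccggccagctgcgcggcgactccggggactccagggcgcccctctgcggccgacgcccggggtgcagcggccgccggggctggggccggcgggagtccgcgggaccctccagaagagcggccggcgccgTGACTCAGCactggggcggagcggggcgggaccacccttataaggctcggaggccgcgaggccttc

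Of the classical NRF2 targets and detoxification enzymes, 7 of 12 were tested, of which 2 rose, 3 fell and 2 did not pass. The share called was 71.4%, against 50.3% of all tested genes. NQO1, the quinone reductase most used as a readout of NRF2, was at 52.7 and 49.3 FPKM in TTC28-KO libraries, against 54.9 and 54.1 FPKM in WT libraries (log2 fold change -0.09, 95% interval -0.23 to 0.04, edgeR adjusted p = 0.223), lower in both TTC28-KO libraries by a small gap. NQO1 passed as lower with total counts as the scale (-0.16, edgeR adjusted p = 0.0454) and with limma on log2(TPM + 1) (-0.26, adjusted p = 0.0254), while with the median of its neighbours (-0.27) removed it came to 0.18. SRXN1, which repairs overoxidized peroxiredoxins, was at 3.35 and 2.43 FPKM in TTC28-KO libraries, against 3.04 and 3.52 FPKM in WT libraries (-0.18, 95% interval -0.52 to 0.17). The groups overlapped for SRXN1, which shares 85.0% of its exonic bases with AL121758.1 on the same strand. Without TTC28-KO replicate 1 SRXN1 passed at -0.43 (edgeR adjusted p = 0.0491), and without TTC28-KO replicate 2 it came to 0.03.

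OSGIN1, an oxidative stress-induced growth inhibitor (chromosome 16, 83948282 to 83966332, plus strand), fell. It was at 5.36 and 4.71 FPKM in TTC28-KO libraries, against 7.58 and 8.27 FPKM in WT libraries, 1.57-fold lower (log2 fold change -0.65, SE 0.0954, edgeR adjusted p = 9.63e-05). The median log2 fold change of the 25 tested genes on each side of OSGIN1 was -0.30, and with that median removed it came to -0.35. HMOX1, the heme oxygenase, fell by less, at 14.9 and 14.1 FPKM in TTC28-KO libraries, against 16.6 and 17.4 FPKM in WT libraries (-0.22, SE 0.0787, edgeR adjusted p = 0.0310). The HMOX1 call was lost with DESeq2 (adjusted p = 0.0742) and without TTC28-KO replicate 2 (-0.19), WT replicate 1 (-0.25) or WT replicate 2 (-0.20), at edgeR adjusted p-values of 0.0855, 0.0764 and 0.159. CBR1, a carbonyl reductase on chromosome 21, was at 9.39 and 7.95 FPKM in TTC28-KO libraries, against 11.2 and 10.7 FPKM in WT libraries (-0.33, SE 0.0960, edgeR adjusted p = 0.0111). Its neighbours on chromosome 21 had a median of -0.43, so that CBR1 came to 0.10 with the neighbourhood removed. The CBR1 call was also lost without WT replicate 1 (-0.29, edgeR adjusted p = 0.0942) and without TTC28-KO replicate 2 (-0.22, edgeR adjusted p = 0.0605).

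EPHX1 and ABCC1 rose. EPHX1 (chromosome 1, 225810092 to 225845563, plus strand), the microsomal epoxide hydrolase, was at 9.48 and 10.5 FPKM in TTC28-KO libraries, against 6.24 and 6.65 FPKM in WT libraries, 1.55-fold higher (log2 fold change 0.64, SE 0.0963, edgeR adjusted p = 0.000122). ABCC1, the export pump MRP1 that carries glutathione conjugates, was at 9.57 and 10.0 FPKM in TTC28-KO libraries, against 7.52 and 7.86 FPKM in WT libraries (0.35, SE 0.0672, edgeR adjusted p = 0.000758). The groups did not overlap for either gene.

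The other 5 genes of this group did not reach the level required for testing. The aldo-keto reductases AKR1C1, AKR1C2 and AKR1C3 lie side by side on chromosome 10 and are close in sequence, which leaves reads open to being split among them. AKR1C1 had 113 and 108 counts in TTC28-KO libraries, against 53 and 48 in WT libraries, which scaled by library gives a ratio of 2.24 (95% interval 1.76 to 2.86, exact by Clopper and Pearson, counting error only). AKR1C2 had 123 and 116 counts in TTC28-KO libraries, against 79 and 54 in WT libraries, a ratio of 1.84 (1.48 to 2.29). AKR1C3 had 6 and 2 counts in TTC28-KO libraries, against 6 and 2 in WT libraries, and AKR1B10 had 1 count in all. Summed over AKR1C1 to AKR1C4, the counts were 242 and 226 in TTC28-KO libraries, against 138 and 104 in WT libraries. The sum was put among the tested genes without the 1 FPKM filter, which AKR1C1, AKR1C2 and AKR1C3 each failed. Its log2 fold change was 0.98 (SE 0.169, edgeR adjusted p = 0.000320 over that set). Any shared reads that the counting dropped are missing from the sum too. ABCC2, the export pump MRP2, had 171 and 137 counts in TTC28-KO libraries, against 73 and 95 in WT libraries, a ratio of 1.88 (1.55 to 2.28). With no filter on low values, where 25.7% of 30992 genes were called, AKR1C1, AKR1C2, ABCC2 and GPX1 were called higher, at edgeR adjusted p-values of 8.97e-07, 0.000107, 7.34e-06 and 0.0199. These genes were thus higher from very low counts, all under 1 FPKM. For AKR1C1, AKR1C2 and GPX1, reads shared with close copies may be missing, so a low count need not mean little RNA.

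In the thioredoxin and peroxiredoxin group, 5 of 6 genes were tested, of which 2 rose, 2 fell and 1 did not pass. The share called was 80%, against 50.3% of all tested genes. TXN and TXNRD1 fell, PRDX1 and PRDX3 rose, and PRDX6 did not pass. TXNRD1 (chromosome 12, 104215779 to 104350305, plus strand), the selenoenzyme that reduces thioredoxin with NADPH, was at 63.5 and 64.7 FPKM in TTC28-KO libraries, against 84.3 and 86.1 FPKM in WT libraries (log2 fold change -0.41, SE 0.0622, edgeR adjusted p = 0.000131). Its substrate TXN was at 133 and 127 FPKM in TTC28-KO libraries, against 169 and 149 FPKM in WT libraries (-0.29, SE 0.0713, edgeR adjusted p = 0.00464). TXNRD1 fell under every setting tried, while TXN did not pass without WT replicate 1 (-0.19, edgeR adjusted p = 0.0976).

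PRDX1 (chromosome 1, 45511036 to 45523047, minus strand), the abundant cytosolic peroxiredoxin that thioredoxin recycles, was at 156 and 151 FPKM in TTC28-KO libraries, against 101 and 98.8 FPKM in WT libraries. It was 1.54-fold higher (log2 fold change 0.63, SE 0.0602, edgeR adjusted p = 2.70e-06), with a wide gap between the groups. PRDX1 shares 24.9% of its exonic bases with MMACHC on the opposite strand, which had 432 and 378 counts in TTC28-KO libraries, against 342 and 445 in WT libraries. PRDX3, the mitochondrial peroxiredoxin, was at 34.6 and 34.4 FPKM in TTC28-KO libraries, against 29.3 and 28.9 FPKM in WT libraries (0.25, SE 0.0601, edgeR adjusted p = 0.00392). The neighbours of PRDX3 on chromosome 10 had a median of 0.18, which left 0.06, and its call was lost without WT replicate 2 (0.23, edgeR adjusted p = 0.0541). PRDX6, which uses glutathione rather than thioredoxin, was at 85.4 and 82.0 FPKM in TTC28-KO libraries, against 86.6 and 84.0 FPKM in WT libraries (-0.02, 95% interval -0.16 to 0.11). PRDX2, a further cytosolic peroxiredoxin, had 4 and 1 counts in TTC28-KO libraries, against 1 and 6 in WT libraries, and its 4 processed copies had 1 and 5 counts in TTC28-KO libraries, against 4 and 2 in WT libraries. The PRDX2 ratio of 0.731 had a 95% exact interval of 0.183 to 2.68, and the part of reads that match several copies in these low counts was not tested.

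**Figure D3:**
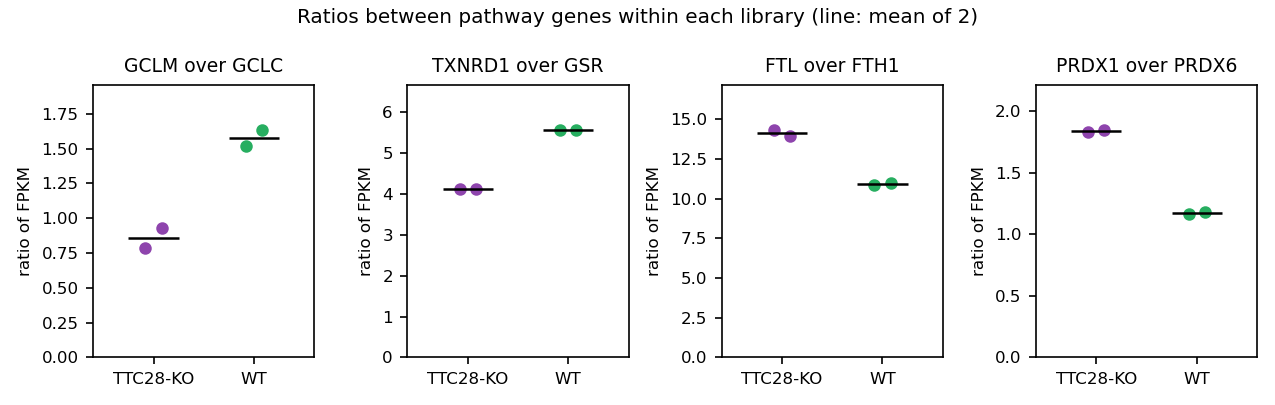
Ratio of FPKM between 2 genes within each library, TTC28-KO left and WT right, with the line at the mean of 2 libraries and each axis from 0. GCLM over GCLC and TXNRD1 over GSR are lower in both TTC28-KO libraries, and FTL over FTH1 and PRDX1 over PRDX6 are higher in both.

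Ratios between pathway members within a library, which hold whatever the scaling, restate the values above. These pairs were chosen after their values were seen and carry no test. TXNRD1 over GSR, the reductases of thioredoxin and of glutathione, was 4.13 and 4.12 in TTC28-KO libraries, against 5.56 and 5.55 in WT libraries. PRDX1 over PRDX6 was 1.83 and 1.85 in TTC28-KO libraries, against 1.16 and 1.18 in WT libraries. Each ratio sets a called gene over a gene that did not pass, so the gap between the groups repeats those calls and adds no further result.

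Of 3 genes of NADPH supply by the pentose phosphate pathway, 1 rose, 0 fell and 2 did not pass. The share called was 33.3%, against 50.3% of all tested genes. TKT, transketolase, was at 52.9 and 51.3 FPKM in TTC28-KO libraries, against 46.1 and 47.1 FPKM in WT libraries (log2 fold change 0.17, SE 0.0618, edgeR adjusted p = 0.0384). Its call was lost without TTC28-KO replicate 1 (0.15), WT replicate 1 (0.15) or WT replicate 2 (0.17), at edgeR adjusted p-values of 0.0793, 0.195 and 0.142. The TKT call was also lost with no filter (edgeR adjusted p = 0.0599), with total counts as the scale (0.10, edgeR adjusted p = 0.192) and with limma on log2(FPKM + 1) and log2(FPKM + 0.1), at adjusted p-values of 0.0543 and 0.0545. The neighbours of TKT on chromosome 3 had a median of -0.20, and with it removed TKT came to 0.37. PGD, which makes NADPH from 6-phosphogluconate, was at 0.10 (95% interval -0.03 to 0.24) and TALDO1, transaldolase, at -0.05 (-0.18 to 0.08).

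The ferritin chains separated. FTL (chromosome 19, 48965301 to 48966878, plus strand), the light chain of the iron store ferritin, was at 1204 and 1261 FPKM in TTC28-KO libraries, against 941 and 943 FPKM in WT libraries, and rose by a log2 fold change of 0.39 (SE 0.0668, edgeR adjusted p = 0.000313). Its neighbours had a median of 0.22, which left 0.17. FTH1, the heavy chain with ferroxidase activity, was at 84.1 and 90.6 FPKM in TTC28-KO libraries, against 86.5 and 86.0 FPKM in WT libraries (0.02, 95% interval -0.12 to 0.16). The ratio of FTL to FTH1 per length, which restates these values and carries no test, was 14.3 and 13.9 in TTC28-KO libraries, against 10.9 and 11.0 in WT libraries. FTH1 shares 62.4% of its exonic bases with BEST1 on the opposite strand, which had 13 and 18 counts in TTC28-KO libraries, against 27 and 29 in WT libraries. The 25 processed copies of FTH1 in the table held 2.58% of its own counts in TTC28-KO libraries and 2.27% in WT libraries, and the handling of reads matching several copies was not given in the sources used here.

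Both metallothioneins, small cysteine-rich proteins that bind zinc and other metals, fell. MT1X (chromosome 16, 56682424 to 56684196, plus strand) was at 6.17 and 5.10 FPKM in TTC28-KO libraries, against 8.87 and 7.70 FPKM in WT libraries, 1.46-fold lower (log2 fold change -0.55, SE 0.127, edgeR adjusted p = 0.00288). MT2A (chromosome 16, 56608199 to 56609497, plus strand) was at 144 and 154 FPKM in TTC28-KO libraries, against 196 and 166 FPKM in WT libraries (-0.28, SE 0.0797, edgeR adjusted p = 0.0102). MT1X and MT2A lie in the same gene cluster, whose neighbouring tested genes had a median of -0.27 for each. With it removed, MT1X came to -0.28 and MT2A to -0.01. Without WT replicate 1 MT2A came to -0.15 (edgeR adjusted p = 0.187), and limma on log2(FPKM + 1) gave MT2A an adjusted p of 0.0644. Summed over 9 metallothionein genes, of which MT2A and MT1X held nearly all counts, the totals were 5508 and 5101 in TTC28-KO libraries, against 7076 and 6246 in WT libraries (log2 fold change -0.29, SE 0.0787, edgeR adjusted p = 0.00697). The sum therefore mostly repeats MT2A and adds little to it. Any shared reads that the counting dropped are missing from the sum too. The other cluster genes MT1A, MT1E, MT1F, MT1G, MT1H and MT1M were listed at 0 counts in all 4 libraries, and MT3 had 0 and 0 counts in TTC28-KO libraries, against 3 and 1 in WT libraries.

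The 250 bases before the starts of MT2A and MT1X, at chr16:56608334-56608583 and chr16:56682220-56682469 (plus strand, GRCh38.p14, RefSeq), are shown because these genes fell together and their promoters carry repeated metal response elements, the sites of the zinc-sensing factor MTF1. The core letters TGCACNC and TGCGCNC were searched on both strands, overlapping matches counted apart, and are in capitals. MT2A held 7 matches and MT1X held 4. At least 3 matches, a number set after these were seen, were held by 1.58% of the windows of all genes. MT2A also holds TGACTCAGC, a match to the antioxidant response letters that starts 104 bases before its start and is left in lower case below.
MT2A: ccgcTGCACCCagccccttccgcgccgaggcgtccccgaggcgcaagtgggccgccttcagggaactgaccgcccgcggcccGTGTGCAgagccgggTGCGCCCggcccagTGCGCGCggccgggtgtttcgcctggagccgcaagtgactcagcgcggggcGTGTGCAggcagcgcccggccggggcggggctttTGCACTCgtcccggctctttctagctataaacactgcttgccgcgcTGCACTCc
MT1X: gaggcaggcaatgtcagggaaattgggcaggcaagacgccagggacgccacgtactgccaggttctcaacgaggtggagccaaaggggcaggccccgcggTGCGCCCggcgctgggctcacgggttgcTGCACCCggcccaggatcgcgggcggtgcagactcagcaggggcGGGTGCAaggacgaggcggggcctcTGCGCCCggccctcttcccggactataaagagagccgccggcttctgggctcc

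The remaining members remove superoxide and peroxide, and neither passed. SOD2, the mitochondrial superoxide dismutase and an NF-kB target, was at 3.81 and 3.77 FPKM in TTC28-KO libraries, against 4.02 and 4.22 FPKM in WT libraries (log2 fold change -0.12, 95% interval -0.26 to 0.03). SOD2 passed as lower with total counts as the scale (-0.18, edgeR adjusted p = 0.0354), and its neighbours had a median of -0.16, which left 0.041. The values are those of ENSG00000112096, and the other gene named SOD2, ENSG00000285441, had 1 and 2 counts in TTC28-KO libraries, against 0 and 1 in WT libraries. CAT, catalase, was at 7.84 and 7.52 FPKM in TTC28-KO libraries, against 6.43 and 7.05 FPKM in WT libraries (0.19, 95% interval 0.01 to 0.38, edgeR adjusted p = 0.0808). The groups did not overlap for either gene, though the gaps were small.

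Ordered by level per length, FTL stood first in both groups, at 1232 ± 40.2 FPKM (SD, n = 2) in TTC28-KO and 942 ± 1.42 FPKM (SD, n = 2) in WT libraries. In TTC28-KO it was followed by GPX4 (185 ± 18.3 FPKM), PRDX1 (154 ± 3.62 FPKM), MT2A (149 ± 7.14 FPKM) and TXN (130 ± 4.28 FPKM; SD, n = 2 each). In WT the order was MT2A (181 ± 21 FPKM), GPX4 (169 ± 1.59 FPKM), TXN (159 ± 14.3 FPKM) and PRDX1 (99.8 ± 1.40 FPKM; SD, n = 2 each). PRDX1 and MT2A did not differ from each other beyond their spread in TTC28-KO, nor did MT2A from GPX4 or GPX4 from TXN in WT.

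Other genes of the same pathways were described from 6 lists with 97 genes. Of these, 76 were tested, 23 rose, 23 fell and 30 did not pass, 60.5% called against 50.3% of all tested genes. The lists were chosen with earlier results of these data known, so these shares are not an independent comparison. With a floor of 5 FPKM in at least 2 libraries, 58.0% of all tested genes were called. For each list the genes with the smallest p are named. Of 16 tested NRF2 targets outside the members, 4 rose, 3 fell and 9 did not pass (43.8% called, against 50.3% of all tested genes). The 3 that fell, named after their values were seen, were ME1 (log2 fold change -0.34), AKR1B1 (-0.26) and SLC3A2 (-0.23). ABCC3, not tested, had 118 and 83 counts in TTC28-KO libraries, against 212 and 231 in WT libraries, a ratio of 0.465 (95% exact interval 0.391 to 0.550). The 4 that rose had the smallest p. SLC6A6, the taurine transporter, was at 9.01 and 9.05 FPKM in TTC28-KO libraries, against 4.80 and 5.30 FPKM in WT libraries (log2 fold change 0.84, SE 0.0723). IDH1, a cytosolic source of NADPH, was at 22.8 and 23.2 FPKM in TTC28-KO libraries, against 16.5 and 15.7 FPKM in WT libraries (0.52, SE 0.0637). The heme transporter SLC48A1 (0.51, SE 0.0658, beside neighbours at a median of 0.31) and PIR, pirin (0.40, SE 0.105), also rose, PIR not passing without WT replicate 1 or WT replicate 2 (edgeR adjusted p = 0.0518 and 0.0511).

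**Figure D4:**
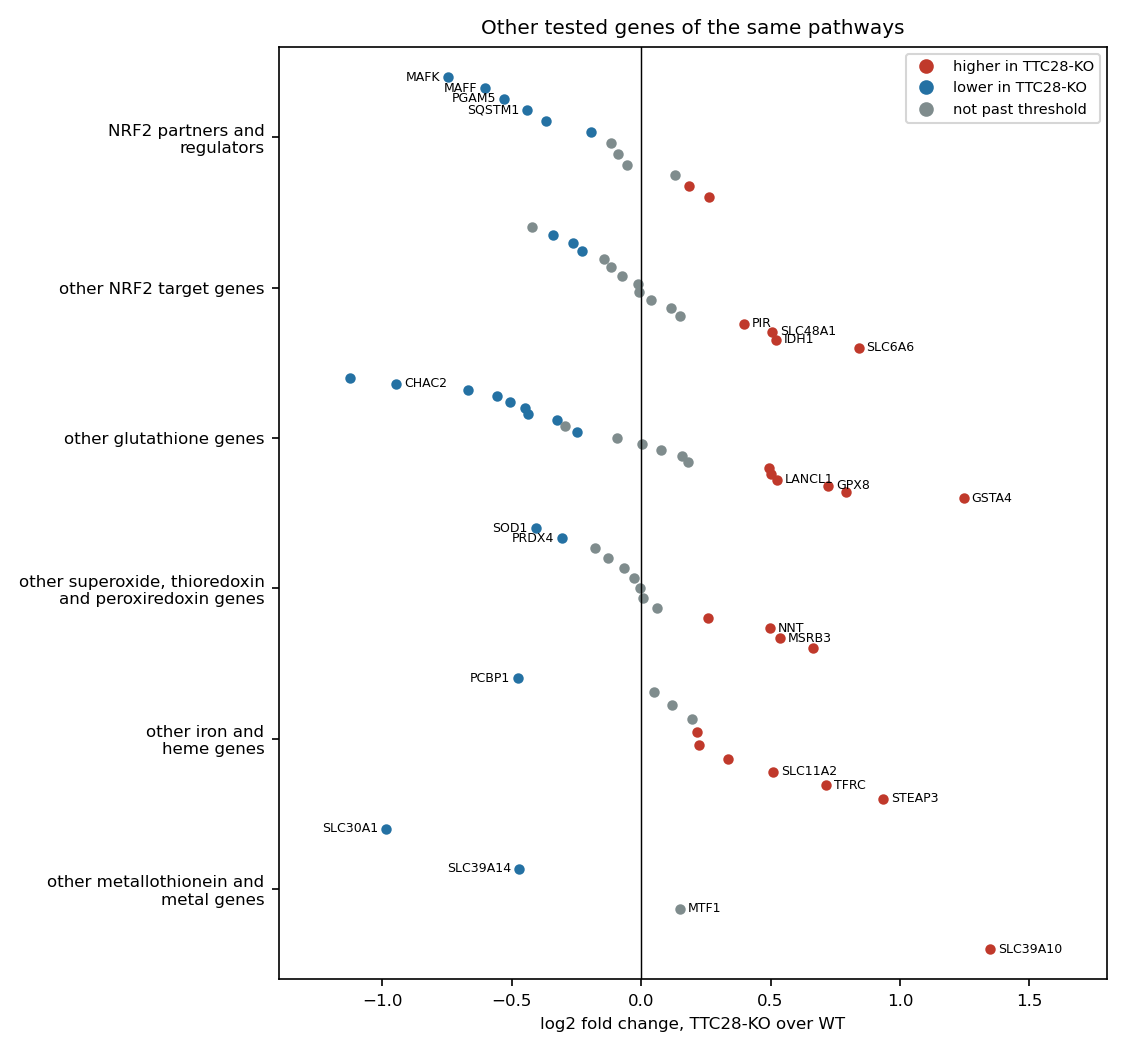
Log2 fold change, TTC28-KO over WT, of 76 tested genes of the same pathways that are not members, 1 row per list and 1 point per gene, red where higher, blue where lower and grey where not past the threshold; the named points are those with the smallest p. MAFK and MAFF lie at the low end of the top row, the iron row lies mostly right of 0, and SLC39A10 at 1.35 and SLC30A1 at -0.98 mark the ends of the metal row.

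Of 21 tested glutathione genes outside the members, 6 rose, 9 fell and 6 did not pass (71.4% called, against 50.3% of all tested genes). GPX3 and MGST1, which fell, reached 1 FPKM only in WT libraries, so they entered the test only through the group where they were higher. GPX3 was at 0.556 and 0.557 FPKM in TTC28-KO libraries, and MGST1 at 0.916 and 0.875 FPKM. GLRX, which rose, was at 0.965 FPKM in WT replicate 2 and depended on the TTC28-KO libraries in the same way. GSTA4, a transferase that conjugates the lipid peroxidation product hydroxynonenal, was at 13.6 and 14.0 FPKM in TTC28-KO libraries, against 6.23 and 5.44 FPKM in WT libraries, 2.37-fold higher (log2 fold change 1.25, SE 0.0984, edgeR adjusted p = 5.17e-07). GPX8, a peroxidase of the endoplasmic reticulum, was at 19.3 and 20.6 FPKM in TTC28-KO libraries, against 12.2 and 12.0 FPKM in WT libraries (0.72, SE 0.0699), and LANCL1, a glutathione-binding protein, rose by 0.52 (SE 0.0639). CHAC2, which breaks down glutathione in the cytosol, was at 6.08 and 6.91 FPKM in TTC28-KO libraries, against 12.9 and 12.1 FPKM in WT libraries, 1.93-fold lower (-0.95, SE 0.117, edgeR adjusted p = 2.32e-05). Both GSTA4 and CHAC2 lay clear of the other group in every library.

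Of 13 tested thioredoxin, peroxiredoxin and superoxide dismutase genes outside the members, 4 rose, 2 fell and 7 did not pass. The share called was 46.2%, against 50.3% of all tested genes. MSRB3, a methionine sulfoxide reductase, was at 10.6 and 11.9 FPKM in TTC28-KO libraries, against 7.64 and 7.90 FPKM in WT libraries (log2 fold change 0.54, SE 0.0731), beside neighbours at a median of 0.22. NNT, the mitochondrial transhydrogenase that makes NADPH, was at 5.44 and 6.18 FPKM in TTC28-KO libraries, against 3.90 and 4.33 FPKM in WT libraries (0.50, SE 0.0887). SOD1, the cytosolic superoxide dismutase, was at 55.6 and 47.3 FPKM in TTC28-KO libraries, against 70.6 and 66.2 FPKM in WT libraries (-0.41, SE 0.0762). SOD1 lies on chromosome 21, as CBR1 does, and its neighbours had a median of -0.35. PRDX4, the peroxiredoxin of the endoplasmic reticulum, fell by 0.31 on the log2 scale (SE 0.0645).

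Of 10 tested iron and heme genes outside the members, 6 rose, 1 fell and 3 did not pass (70% called, against 50.3% of all tested genes). STEAP3, the ferrireductase of endosomes, was at 33.9 and 31.8 FPKM in TTC28-KO libraries, against 16.8 and 17.6 FPKM in WT libraries (log2 fold change 0.93, SE 0.0632, edgeR adjusted p = 1.27e-07). TFRC, the transferrin receptor, was at 15.6 and 16.2 FPKM in TTC28-KO libraries, against 9.11 and 10.3 FPKM in WT libraries (0.72, SE 0.0692), and the iron importer SLC11A2 rose by 0.51 (SE 0.0779) where its neighbours had a median of 0.34. PCBP1, which delivers iron to ferritin, was at 72.7 and 66.7 FPKM in TTC28-KO libraries, against 97.8 and 96.7 FPKM in WT libraries (-0.48, SE 0.0634), beside neighbours at a median of -0.31. STEAP3, TFRC, SLC11A2 and the ferritin light chain were thus called higher, as were 25.1% of all tested genes, while the ferritin heavy chain did not pass. With the median of neighbours removed, STEAP3 came to 0.67 and TFRC to 0.56, but SLC11A2 and FTL only to 0.17 each. FTL did not pass with limma on log2(TPM + 1) (0.22, adjusted p = 0.0693).

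Metal genes outside the members included 4 tested, of which 1 rose, 2 fell and 1 did not pass. The share called was 75%, against 50.3% of all tested genes. SLC39A10, a zinc importer, was at 15.9 and 17.9 FPKM in TTC28-KO libraries, against 6.55 and 6.78 FPKM in WT libraries, 2.55-fold higher (log2 fold change 1.35, SE 0.0737, edgeR adjusted p = 2.11e-08). SLC30A1, the zinc exporter of the plasma membrane and, like the metallothioneins, a target of MTF1, was at 3.12 and 3.22 FPKM in TTC28-KO libraries, against 6.32 and 6.25 FPKM in WT libraries, 1.98-fold lower (-0.98, SE 0.0846, edgeR adjusted p = 1.06e-06). SLC39A14, a zinc and iron importer, fell by 0.47 on the log2 scale (SE 0.0665). MTF1 itself was at 2.65 and 3.04 FPKM in TTC28-KO libraries, against 2.35 and 2.79 FPKM in WT libraries (0.15, SE 0.107), overlapping between the groups.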

How the data were processed

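Libraries were prepared from H1299 total RNA with a TruSeq kit, per the labels. The submitters' processing notes name HISAT2 2.0.5 and the hg38 build; counter, strand setting and annotation were not given in the sources used here. The authors deposited raw counts for every gene in each library and FPKM values. The authors' deposited signal columns (group means of scaled counts) were not used. The authors' deposited table also gives a log2 fold change and p-values from a tool that the headers do not name; for the 31 tested members, the authors' deposited table has 6 higher and 8 lower at an adjusted p under 0.05, and the log2 fold changes differed from those here by at most 0.0174.

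Counts were tested with edgeR 4.0.16 (R 4.3.3; quasi-likelihood, two-sided, TMM factors 0.977 to 1.02, no covariates), and "edgeR adjusted p" means its Benjamini-Hochberg adjusted p over all 13079 genes tested. Fits with other filters or with summed genes were adjusted over their own set of tested genes. A 2 against 2 exact permutation cannot give p under 0.333, so none was run. Alternatives used DESeq2 1.42.0, limma 3.58.1, other filters and scalings, leaving out each library, a replicate block and removal of the median of 25 tested genes on each side. On data simulated for TTC28-KO against WT over 13079 genes, edgeR recovered 94.0% of 100 genes changed by 1 and 71.0% of 100 changed by 0.5 on the log2 scale, with 2 false calls. Only these genes were changed there, as many up as down, while 50.3% of tested genes were called in the data. The simulated recovery and false calls therefore need not hold for the data. All 39 member genes have identical coordinates in GENCODE 29, which gave exon overlaps. Values were given in full for members past the threshold and 0.5 or more in log2 size, and up to 4 genes with the smallest p were named per list. Counts with few reads were compared as ratios with 95% exact intervals, which cover counting error only. The members and lists were chosen with earlier results of these data known.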

Additional observations from a re-analysis of the deposited data

How the results depend on the processing

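Of the 15 called members, EPHX1, GCLM, MT1X, OSGIN1, PRDX1, SLC7A11 and TXNRD1 kept their direction and stayed past the threshold under every test setting tried. A floor of 5 FPKM left 4346 called genes in all, because fewer genes were tested. On a TPM scale (limma on log2 values with a pseudocount of 1) the median of all tested genes shifted to -0.16 and 25.5% of calls were higher, against 49.9%, and 2 members were called higher and 13 lower. There, values came to -0.15 for NFE2L2, -0.15 for KEAP1, -0.090 for GCLC, -0.045 for GSS, -0.14 for GSR, -0.039 for GPX4, -0.061 for PGD, -0.00082 for TKT, -0.15 for FTH1 and -0.014 for MTF1. With total counts as the scale, values were -0.052 for NFE2L2, -0.048 for KEAP1, -0.043 for GSR and -0.044 for FTH1, and with no filter NFE2L2 was at -0.00033. With the local median removed, the called gene CBR1 turned to 0.10, and of the genes that were not called NFE2L2 turned to -0.31, KEAP1 to -0.13, NQO1 to 0.18, GCLC to -0.14, GSR to -0.0024, FTH1 to -0.032 and SOD2 to 0.041. Leaving out 1 library at a time gave 4 to 7 members higher and 5 to 12 lower, and log2 fold changes of -0.064 to 0.088 for NFE2L2, -0.11 to 0.13 for KEAP1, -0.43 to 0.026 for SRXN1 and -0.040 to 0.080 for FTH1. With 1 library left in a group, it is assumed to vary like the others. The replicate block gave 7108 called genes, 6 members higher and 10 lower, GSTP1 passing at -0.15 (edgeR adjusted p = 0.0434); same-numbered libraries share only a number (correlation of deviations -0.0014 across genes, not independent replicates). The causes of these changes were not tested. Only 2 libraries a group limit the precision.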
